A study of Spodoptera frugiperda with 3 samples.

Results

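A set of 75 protein-coding genes was abundant in pupal Verson's glands of the fall armyworm, Spodoptera frugiperda, and far lower in glands of the last larval instar (L6) and of the prepupa, though not always low there, since values up to 175 in L6 and 103 in the prepupa occurred. The genes were selected on measured values. Each had a rescaled TPM of 50 or more in the pupa library, and a value there, with 1 added to both sides, at least 20 times that of L6 and at least 20 times that of the prepupa. Rescaled TPM is the deposited TPM (reads per exon length, set to a fixed sum per library) with rRNA genes and genes of the mitochondrial genome taken out and the remainder brought back to 1000000 per library. Of 18798 protein-coding genes outside these classes, 81 (0.431%) met both limits, and 6 of them were left out by the definition of the set. Against L6 alone 130 genes (0.692%) met the limits, and against the prepupa alone 166 (0.883%). These shares follow from the way the genes were chosen and are given as a description.

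The glands were dissected from FAW-SID1, a transgenic strain that carries GFP under the hr5-IE1 promoter and the SID1 gene of the worm Caenorhabditis elegans under the IE1 promoter, so that all libraries share both transgenes. Glands were found by their bright GFP, and they break down soon after pupation. There was 1 library, made from isolated total RNA, for each of the L6, prepupa and pupa stages. The paper does not give the library type. How many animals a library pools, and their age within a stage, is not given in the sources used here. With no replicate, the differences between stages have no test and no p-value, and the intervals given here cover counting error only. In bulk RNA, fewer cells of a type and less RNA per cell cannot be told apart.

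The L6, prepupa and pupa libraries had totals of 21366500, 15208331 and 18620715 exon reads. Outside rRNA and mitochondrial genes they kept 2610753, 15161624 and 11716156, so that L6 kept only 12.2% of its reads and is the least precise library. No gene that defines Verson's glands was at hand to check the tissue label. Of 5 genes named as fat body proteins, 2 were highest in the pupa, and their summed rescaled TPM was 3184 at L6, 114 at the prepupa stage and 10727 in pupal glands, nearly all of it from apolipophorin-3, while vitellogenin-like (LOC118280767) had 0.0158 in the pupa. The 10 genes named as muscle proteins summed to 6594, 312 and 217. For hemocytes the name search found only 8 genes with integrin or disintegrin in their names, which summed to 231, 208.5 and 105. None of them is named as a hemocyte protein, so these sums do not measure hemocytes. The part of other cells in the values of the 75 genes was not tested.

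Verson's glands are paired dermal glands of the lepidopteran epidermis, each made of a few cells, of which one secretes and the others form the reservoir and the duct. The secretory cell fills during the intermolt and empties at the molt, and after the larval-pupal molt the gland is broken down by programmed cell death. Cuticle is a layered composite of chitin and structural proteins, and many structural proteins are stage-specific, with larval, pupal and adult cuticles built from partly separate sets. Many cuticular protein genes lie side by side in the genome as families of copies.

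The 75 genes together took 0.125% of the rescaled TPM at L6, 0.0569% at the prepupa stage and 7.07% in pupal glands. In reads these were 0.106% (95% Wilson interval 0.102 to 0.110%), 0.0360% (0.0351 to 0.0370%) and 6.79% (6.78 to 6.81%). Their pupa values ran from 56.8 to 7392, with a median of 305. There were 9 genes at 3000 or more, 11 from 1000 to 3000, 18 from 300 to 1000, 23 from 100 to 300 and 14 under 100. The 10 highest genes made up 57.2% of the summed value of the set.

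A protein name was at hand for 40 of the 75 genes, and 15 of these names read only "uncharacterized protein". Sorted by name, 9 were cuticular proteins, 7 had names of structural or proline-rich proteins, and 1 each was an attacin, an odorant-binding protein, a matrix metalloproteinase, a cytochrome P450 and a homeobox protein. A further 4 had other names and 35 had none. No gene of the set was among the 13 genes named as tanning enzymes or the 12 named as chitin enzymes, but members made up only 1.74% of all 2296 named genes, so that lists of this size would hold few or none at that share.

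The uncharacterized gene LOC118273859, at 5606213 to 5607075 of the sequence NC_049728.1, was the most abundant of the set. Its rescaled TPM was 89.7 in L6 on 195 reads, 0 in the prepupa with no read, and 7392 in the pupa on 81018 reads. It was 82.4-fold higher in the pupa than in L6 (95% interval 71.6 to 95.3), and at least 18210-fold higher than in the prepupa by the lower 95% bound. Both earlier stages were thus far below the pupa, but the L6 library held reads of the gene and the deeper prepupa library held none.

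LOC118277402, for which no name was at hand, was second, with 125 at L6, 41.3 at the prepupa stage and 4307 in pupal glands. LOC118279240, also without a name, had 175, 27.5 and 4107. Here the prepupa was not empty, and the pupa lay only 34.5-fold (29.5 to 40.6) and 23.4-fold (21.1 to 26.0) above L6. The uncharacterized LOC118272368 was of the first kind, with 42.7 in L6 from 94 reads, no read in the prepupa, and 4100.3 in the pupa from 45460 reads.

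LOC118274334 is named calphotin-like, after a calcium-binding protein of Drosophila photoreceptors, and had 38.0 at L6, 12.6 at the prepupa stage and 4033 in pupal glands. LOC118266080 is named ATP-dependent RNA helicase A-like, although its 681 bases of exon are far too few for a protein of that family. It had 123 at L6, 103 at the prepupa stage and 3944 in pupal glands, so that both earlier stages were above 50 as well. LOC118272554, with no name, was lower in L6 (3.88, 4 reads) than in the prepupa (33.2, 143 reads), and had 3490.01 in the pupa, but none of its pupa reads mapped uniquely, so that its values depend on how reads shared between copies were assigned. LOC118270404 had 67.1, 2.51 and 3204, and the uncharacterized LOC118273870 had 37.8, 0.371 and 3170.5. Further down, the uncharacterized LOC118276244 had 71.2, 36.1 and 2203, and LOC118276464, without a name, had 17.3, 19.5 and 1326. L6 was the lowest library in LOC118272554 and LOC118276464, and the prepupa in the other genes of this paragraph.

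**Figure D1:**
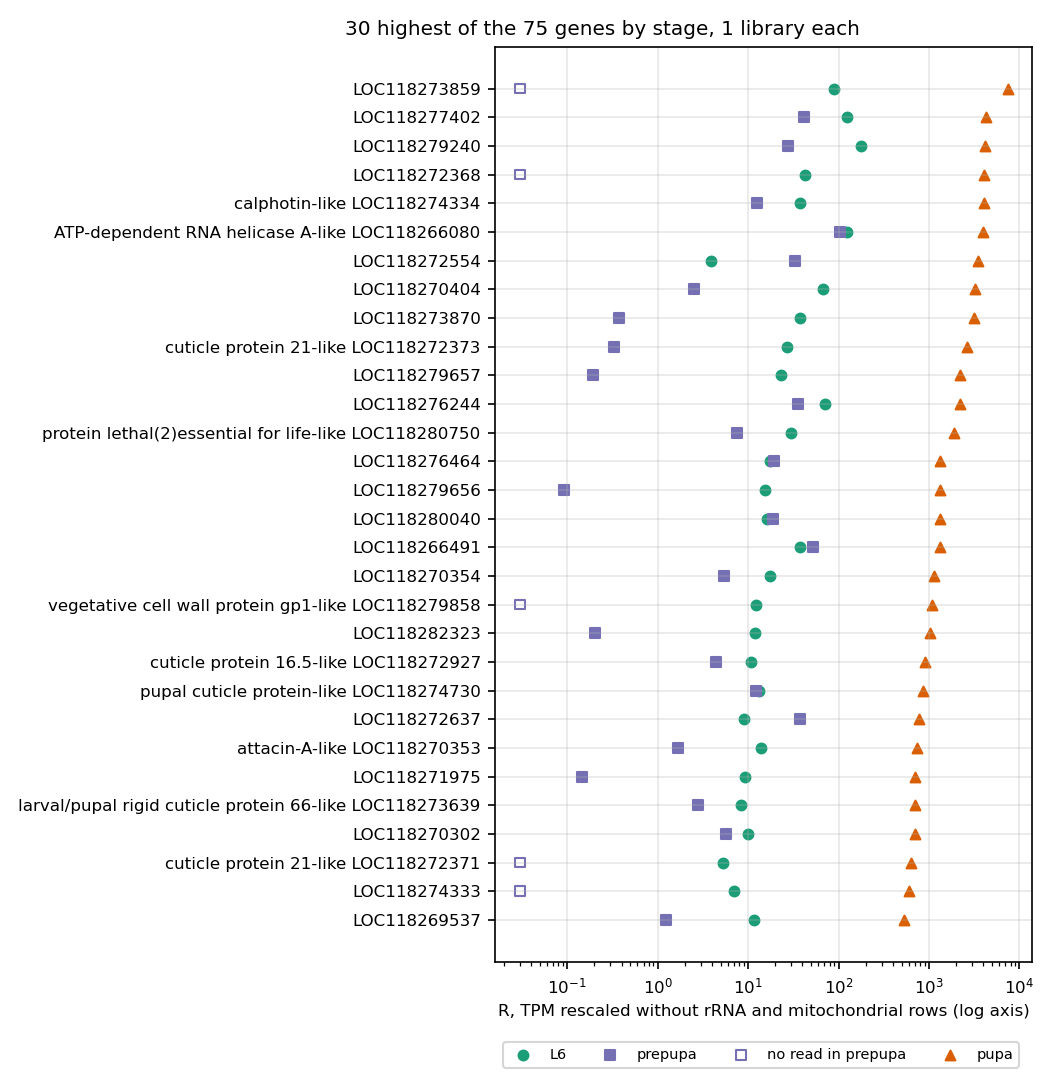
Rescaled TPM (horizontal log axis) of the 30 genes of the set with the highest pupa value, 1 row per gene, with circles for L6, squares for the prepupa and triangles for the pupa, 1 library each. Open squares at the left mark genes with no read in the prepupa. Pupa values run from 534 to 7392, the L6 values lie between 3.88 and 175, and the prepupa values spread from no read to 103.

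The cuticular protein genes formed the largest named group. Proteins of this kind are secreted by epidermal cells and assembled with chitin into the new cuticle. Among the 30 protein-coding genes of the files that carry such a name, 12 were highest in the pupa, 12 in L6 and 4 in the prepupa, and 2 had no read in any library. For comparison, 413 of the 1649 genes with other names and 168 of the 386 uncharacterized ones were highest in the pupa. Members made up 1.74% of all named genes. Names were at hand for only 2296 coding genes, so that this is not a full count of the family. Of the 12 highest in the pupa, 11 met the limits of the set, of which 2 were left out by definition and 9 are members. The other gene, a cuticle protein 16.5-like gene (LOC118272366), had 0.819 at L6, 0.392 at the prepupa stage and 36.3 in pupal glands and missed only the minimum of 50.

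The highest cuticular member was a cuticle protein 21-like gene, LOC118272373, with 26.9 at L6 (39 reads), 0.330 at the prepupa stage (2 reads) and 2632 in pupal glands (19256 reads). Its pupa value was 97.9-fold that of L6 (71.6 to 138) and 7983-fold that of the prepupa (2210 to 65924). The other cuticle protein 21-like gene, LOC118272371, had 5.34, 0 and 625, with no read in the prepupa. It was at least 1306-fold higher in the pupa than in the prepupa at the floor of 3 reads. Both genes thus had some reads in L6 and next to none in the prepupa.

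Cuticle protein 16.5-like (LOC118272927) had 10.9 at L6, 4.44 at the prepupa stage and 905 in pupal glands, with 52.4% of its pupa reads mapped uniquely. One pupal cuticle protein-like gene, LOC118274730, had 13.2, 12.3 and 857, and another, LOC118275060, had 4.76, 1.66 and 478. A larval/pupal rigid cuticle protein 66-like gene, LOC118273639, had 8.43, 2.82 and 700.2. In these genes the prepupa was low but not empty, and in LOC118274730 it lay next to L6.

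The 2 genes named pupal cuticle protein 36-like were the longest of the group, with 1807 and 1806 bases of exon. LOC118265846 had 1.98 at L6, 0.0526 at the prepupa stage and 215 in pupal glands, and LOC118266013 had 1.76, 0 and 188. The lowest cuticular member, another larval/pupal rigid cuticle protein 66-like gene (LOC118273466), had 0.951, 0.455 and 112. Across the 9 genes the L6 level was 0.847 to 1.54% of the pupa level (median 0.996%), while their pupa levels ran from 112 to 2632. The lowest share, that of LOC118273466, rests on 2 L6 reads (95% interval 0.102 to 3.06%), and LOC118272371, LOC118265846 and LOC118266013 had 8, 9 and 8 L6 reads. Their prepupa level ran from 0 to 1.43% (median 0.346%).

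Genes with names of structural or proline-rich proteins made up the next group. Such names are given by resemblance to long repetitive proteins of other organisms and say little of the function in an insect. Of 37 genes of the files with such a name, 7 are members, against 1.74% of all named genes. LOC118279858, named after the vegetative cell wall protein gp1 of green algae, had 12.2 in L6, no prepupal read and 1070.3 in the pupa. Its pupa value was at least 3476-fold that of the prepupa by the lower 95% bound. A further gene of that name, LOC118279863, had 1.52 from 4 reads, 0.182 from 2 reads and 514 from 6825 reads. The pair thus differed in L6, where LOC118279858 stood at 1.14% of its pupa level (95% interval 0.794 to 1.59%) and LOC118279863 at 0.295% (0.0805 to 0.757%).

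Small proline-rich protein 2H-like (LOC118277471), named after a protein of the cornified layer of mammalian skin, had 15.1 at L6, 14.6 at the prepupa stage and 529 in pupal glands. A calphotin-like gene, LOC118273851, had 0.328, 0.549 and 73.6. Keratin-associated protein 19-2-like (LOC118274293), named after a protein of mammalian hair, had 1.87, 2.12 and 64.8, and tenascin-X-like (LOC118263714), named after a protein of the vertebrate extracellular matrix, had 0.575, 0.0688 and 56.8. The last has the lowest pupa value of the set but 23 exons, more than any other member, and 99.6% of its exon reads crossed an exon junction.

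Outside the structural names, attacin-A-like (LOC118270353) was the member named as an immune gene. Of 10 genes with such names 7 were highest in the pupa, and 3 met the limits, 2 of which were left out by definition. For comparison, 413 of the 1649 genes with other names and 168 of the 386 uncharacterized ones were highest in the pupa. Members made up 1.74% of all named genes. Attacins are antibacterial proteins that lepidopteran fat body and hemocytes release into the hemolymph. It had 14.1 at L6, 1.68 at the prepupa stage and 737 in pupal glands, 52.4-fold above L6 (37.5 to 75.7) and 438-fold above the prepupa (273 to 752). It lies inside the annotated span of LOC118270354, a member without a name on the other strand, which had 17.7, 5.37 and 1139. None of the reads of either gene mapped uniquely, so the value of each gene is uncertain, and which genes or copies share the reads was not tested. The sum of the fat body genes given above was highest in the same library, through the 2 apolipophorin genes, while the other 3 were highest in L6, and their part in these values was not tested.

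Protein lethal(2)essential for life-like (LOC118280750), of the small heat shock protein family, had 30.02 at L6, 7.55 at the prepupa stage and 1883 in pupal glands. Matrix metalloproteinase-2-like (LOC118267038) belongs to a family that cuts extracellular matrix, and in Drosophila its namesake takes part in tissue remodeling at metamorphosis. It had 6.73, 9.56 and 225, and was 23.6-fold higher in the pupa than in the prepupa (20.3 to 27.6). Cytochrome P450 9e2-like (LOC118264635), of a family of oxidases that act on foreign and endogenous compounds, had 2.01, 6.53 and 199.7. Both of these genes had a prepupa level above that of L6.

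Homeobox protein Mohawk-like (LOC118273125), named after a transcription factor needed for tendon formation in the mouse, had 2.27 at L6 (10 reads), 0.651 at the prepupa stage (12 reads) and 156 in pupal glands (3460 reads). It was 68.6-fold above L6 (37.3 to 143) and 239-fold above the prepupa (137 to 463). It was the only member among the 31 genes named as transcription factors, near the share of 1.74% over all named genes. Of the 31, 22 were highest in the prepupa, as were 1201 (52.3%) of the 2296 named genes. General odorant-binding protein 56a-like (LOC118278025), of a family of small secreted carriers, had 0.871, 0.834 and 129. Allergen Tha p 1-like (LOC118265696), named after a protein of the processionary moth, had 5.38, 0.117 and 203, and leucine-rich repeat-containing protein 40-like (LOC118263065) had 8.01, 14.1 and 305.

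The definition sets only an upper bound on L6 and the prepupa, so the order of those libraries was left to the data. The prepupa was higher than L6 in 25 members and L6 was higher in 48, and 2 had no read in either. L6 was thus higher in 64.0% of the set, close to the 58.3% of the 1397 coding genes with 50 or more in the pupa, and this order is not particular to the set. With TPM as deposited, which keeps rRNA and mitochondrial genes, the 48 became 29. L6 was at least 10 times the prepupa, with 1 added to both sides, in 10 members, while the reverse held for 0. How many coding genes outside the set differed this much was not counted, so these numbers are a description only.

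The prepupa level spread more widely than that of L6, and limits of 0.1% and 1% of the pupa level, chosen after the values were seen, sort the set into 3 parts. In 20 genes, with 29914 of the summed pupa value of 70653, the prepupa stood under 0.1% of the pupa, and 9 of these had no read in the prepupa. They include LOC118273859, LOC118272368, LOC118270404, LOC118273870 and the 2 cuticle protein 21-like genes. Those with no read that have not been named so far are LOC118272140, LOC118274333, LOC118263477 and LOC118277144, with 146, 595, 85.7 and 60.1 in the pupa. In 25 genes the prepupa stood from 0.1 to 1%, among them the calphotin-like LOC118274334. In the other 30, with a summed pupa value of 15813, it stood at 1% or more, with the highest shares at 4.82% in the uncharacterized LOC118272637, 4.62% in LOC118263065 and 4.42% in the uncharacterized LOC118268400. Genes of the last kind were in part on the edge of the definition, and the lower bound of the fold of LOC118272637 over the prepupa was 18.7.

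The L6 level as a share of the pupa level is capped in all members by the ratio of 20 in the definition. Whether the L6 reads of these genes came from L6 glands or from RNA or reads carried over between libraries was not tested, and this limit holds for every L6 value given here. Of the 44 genes with 10 or more reads in L6, 16 had an L6 level between 0.9 and 1.3% of that in the pupa, limits also chosen after the values were seen. Over all 44 the middle 50% ran from 1.20 to 2.86% (range 0.941 to 4.29%). The limit of 10 reads takes out low shares, such as 0.111% on 4 L6 reads in LOC118272554, so both ends of this spread are partly set by the choice. For LOC118273859 the value was 1.21% (95% interval 1.05 to 1.40%), for LOC118272368 1.04% (0.842 to 1.28%), for LOC118273870 1.19% (0.934 to 1.499%) and for LOC118274334 0.941% (0.794 to 1.11%). These intervals overlap, but the genes were taken from the 16 inside the limits of 0.9 and 1.3%. The overlap thus follows largely from the choice and does not show a common share. Of the 16 genes, 10 stood under 0.1% in the prepupa and 14 under 1%.

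The L6 levels were not a single share of the pupa for all members. LOC118279240 stood at 4.27% (3.84 to 4.73%) and LOC118279278, a gene without a name, at 4.29% (2.97 to 6.01%), although LOC118279278 had 1 read in the prepupa. LOC118276268, also without a name, followed at 3.57%. At the other end, LOC118272554 stood at 0.111% (0.0303 to 0.285%), and LOC118263477, LOC118277144 and LOC118282042 had no read in L6. With 0 L6 reads, the pupa value was at least 35.0-fold, 28.5-fold and 32.3-fold higher in these genes by the lower 95% bound. With TPM as deposited the median L6 share over the 75 genes was 0.490% instead of 1.46%.

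The same limits applied with L6 or the prepupa as the high stage gave 113 and 227 genes. In the 113 genes of L6, the median level was 0.125% of the L6 level at the prepupa stage and 0.794% in pupal glands. In the 227 genes of the prepupa, it was 0.155% of the prepupa level in L6 and 0.237% in the pupa. For the 75 pupal genes the medians were 1.46% in L6 and 0.648% in the prepupa. With TPM as deposited, the order of the last 2 medians turned, at 0.490% in L6 and 0.791% in the prepupa. All of these are medians over genes of single libraries.

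**Figure D2:**
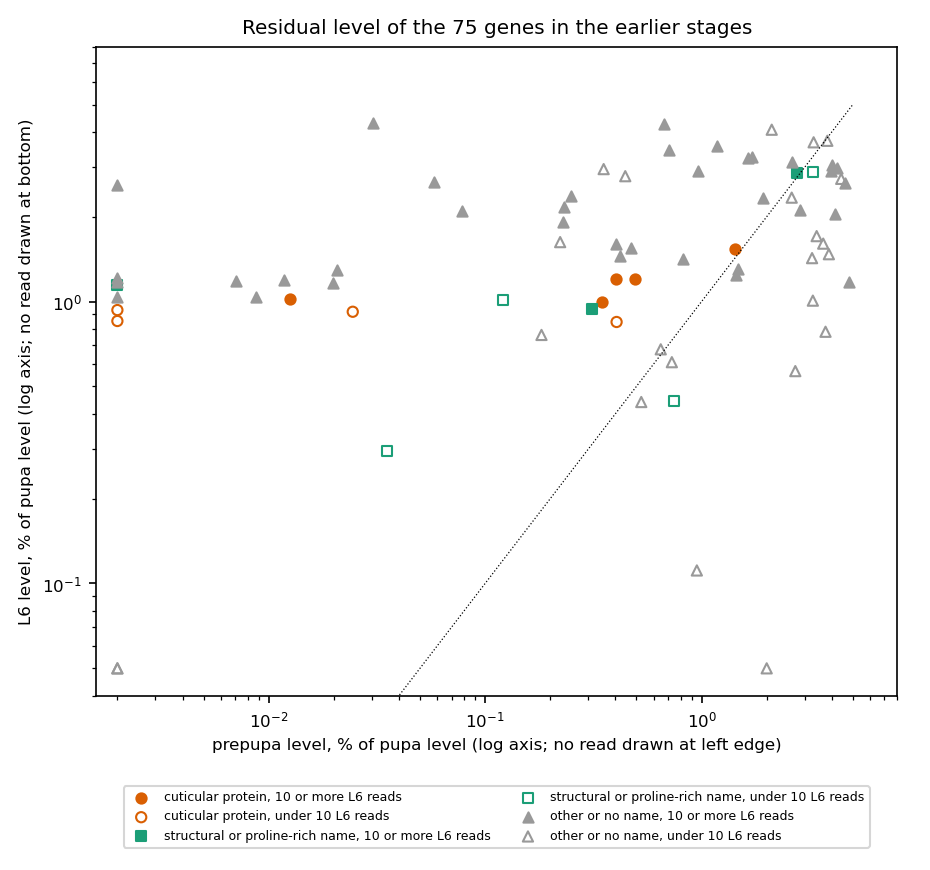
L6 level against prepupa level of the 75 genes, both in percent of the pupa level on log axes, with filled points for genes with 10 or more L6 reads and open points for fewer, as orange circles for cuticular proteins, green squares for structural or proline-rich names and gray triangles for the rest. Genes with no read are drawn at the left or bottom edge and the dotted line marks equal levels. The 9 cuticular protein genes lie between 0.847 and 1.54% on the vertical axis while spreading from 0 to 1.43% on the horizontal one.

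Some members lay near one another. When members no more than 100 kb apart on 1 sequence of the files were joined, 25 of the 75 fell into 8 runs, and 19 into the 5 runs of 3 or more. How many other coding genes such joining would gather was not counted, so these numbers are a description only. Runs also held coding genes outside the set, such as 7 of the 11 in the run on NC_049717.1. The rest were spread over the genome, and 25 of the 91 sequences held a member.

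The run with the highest summed value, 15264, held 5 members within 55.6 kb, at 5560728 to 5616286 of NC_049728.1. In order they are LOC118273851, LOC118274333, LOC118273870, LOC118273859 and LOC118274334, of which the first and the last are named calphotin-like and the rest uncharacterized. LOC118274333 had 6.96 in L6, no prepupal read and 595 in the pupa, the same pattern as its neighbor LOC118273859. Between the first 2 members lie LOC118273854 and LOC118273855, which were under the minimum at 33.3 and 16.7 in the pupa but had at most 0.585 in either earlier stage. LOC118273855 also missed the ratio of 20, at 17.7 over L6 and 12.8 over the prepupa. LOC118273856, between the last 2 members, had 0.422 in the pupa.

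The next run summed to 8263, with 4 members within 27.3 kb at 8021943 to 8049217 of NC_049726.1. It holds the cuticle protein 16.5-like gene LOC118272927, the uncharacterized LOC118272368 and both cuticle protein 21-like genes. The other 4 coding genes in it had between 0 and 19.2 in the pupa, the highest being LOC118272369 with 4.80 in L6 and no read in the prepupa. These 4 lie in a row between the first member and the other 3.

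A run on NC_049727.1, at 13059259 to 13082963, held LOC118273465, LOC118273466 and LOC118273639, the last 2 named larval/pupal rigid cuticle protein 66-like. LOC118273465 has no name at hand and had 0.469 at L6, 0.561 at the prepupa stage and 107 in pupal glands. The genes between, LOC118273319 and LOC118273336, had 35.7 and 35.2 in the pupa, at most 1.13 in L6 and no read in the prepupa. All 5 coding genes of the run were thus highest in the pupa, but only 3 passed the minimum. LOC118273336 also missed the ratio of 20 over L6, at 17.0.

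The run on NC_049717.1, at 16386050 to 16481439, held LOC118266491, LOC118266310, the helicase A-like LOC118266080 and the uncharacterized LOC118266372. LOC118266491 had 37.9 at L6, 52.0 at the prepupa stage and 1307 in pupal glands, and LOC118266310 had 5.51, 7.25 and 181. The prepupa level of the 4 members was 2.61 to 4.02% of the pupa level, in contrast to the first 3 runs. A coding gene between them, LOC118266018, followed another pattern with 661 at L6, 2.69 at the prepupa stage and 967 in pupal glands. The last run, on NC_049723.1 at 4092898 to 4099418, held LOC118270300, LOC118270301 and LOC118270302, all without a name and of 1 exon, with pupa values of 389, 278 and 698. At most 0.0294% of their reads mapped uniquely, so their values are uncertain, and which copies share the reads was not tested.

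**Figure D3:**
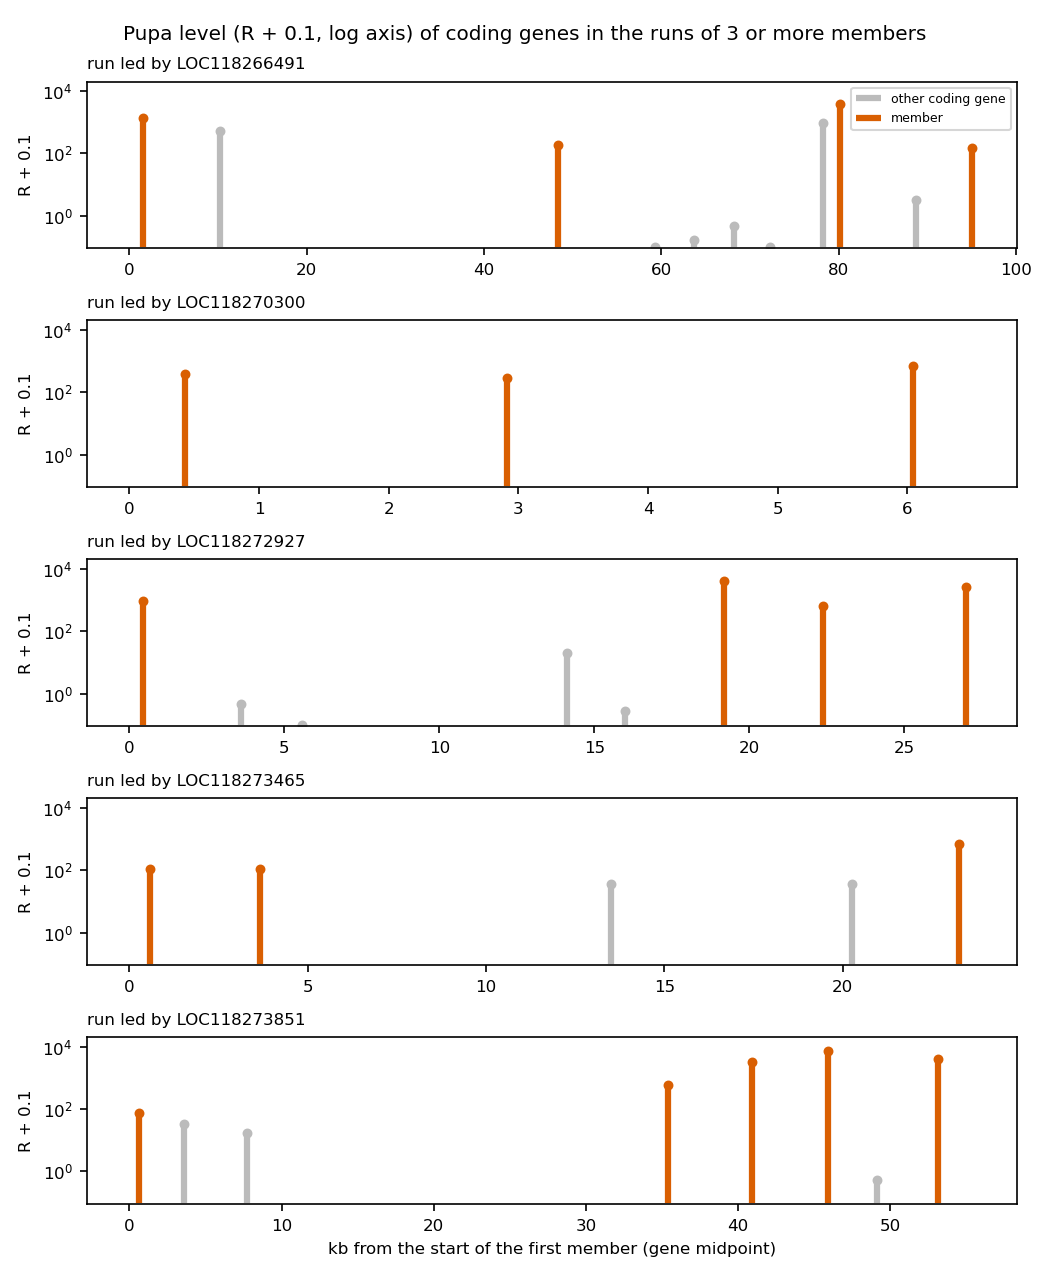
Pupa value (rescaled TPM + 0.1, log axis) of each protein-coding gene in the 5 runs of 3 or more members, placed by its midpoint in kb from the start of the first member. Orange stems are members and gray stems are other coding genes, and a long gene that overlaps the second run is centered outside its panel. The tallest stem, at 7392, stands in the bottom panel.

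By its medians the set was short with few exons, though LOC118269537 had 3626 bases of exon and 18 exons. Up to 3 exons were annotated for 51 members (68.0%), against 46.9% of the 1397 coding genes with 50 or more in the pupa. The median exon length of the set was 863 bases, against 993 for these 1397 genes and 1820 for all coding genes. The median number of exons was 3, against 4 and 6. A single exon was annotated for 13 members (17.3%), against 11.7% and 9.91%. Among the 227 genes of the prepupa the median exon length was 1890 and among the 113 of L6 it was 1104, so that the pupal set was the shortest of the 3. Exon length enters TPM as a divisor, and with CPM, which scales reads to the library total alone, in its place 71 of the 75 genes were again selected, among 95 in all.

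Uniquely mapped reads made up 90% or more of the pupa exon reads in 51 members and under 50% in 14 (18.7%), against 12.7% of the coding genes with 50 or more in the pupa. In 11 members the share was under 1%. Besides those named above these are LOC118279657, LOC118272637, LOC118263522, LOC118280577 and LOC118263085. LOC118279657 had 22.9 at L6, 0.192 at the prepupa stage and 2206 in pupal glands, and 0.163% of its reads were unique. LOC118279656, more than 100 kb away on the same sequence, had 15.6, 0.0933 and 1317, with 29.8% unique. The 2 genes without a name thus had similar profiles, and which copies share their reads was not tested. With uniquely mapped reads only, 62 of the 75 genes were selected again, among 69.

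Intron reads were few, with a median of 0.335% of the reads of a gene, and exceeded 10% in 6 members. In LOC118273870 they made up 54.5%, in LOC118280040 23.3%, in LOC118270404 22.6% and in LOC118274334 20.4%. LOC118280040, a gene without a name, had 16.4 at L6, 19.0 at the prepupa stage and 1316 in pupal glands. LOC118273870 and LOC118274334 belong to the same run, and 0.314% and 0.0550% of their exon reads crossed an exon junction although each has 2 annotated exons. TPM counts only exon reads, so the intron reads of these genes are not part of the values given here. Intron shares of 17.9% and 15.9% were found in LOC118278297, a gene without a name, and in allergen Tha p 1-like (LOC118265696).

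**Figure D4:**
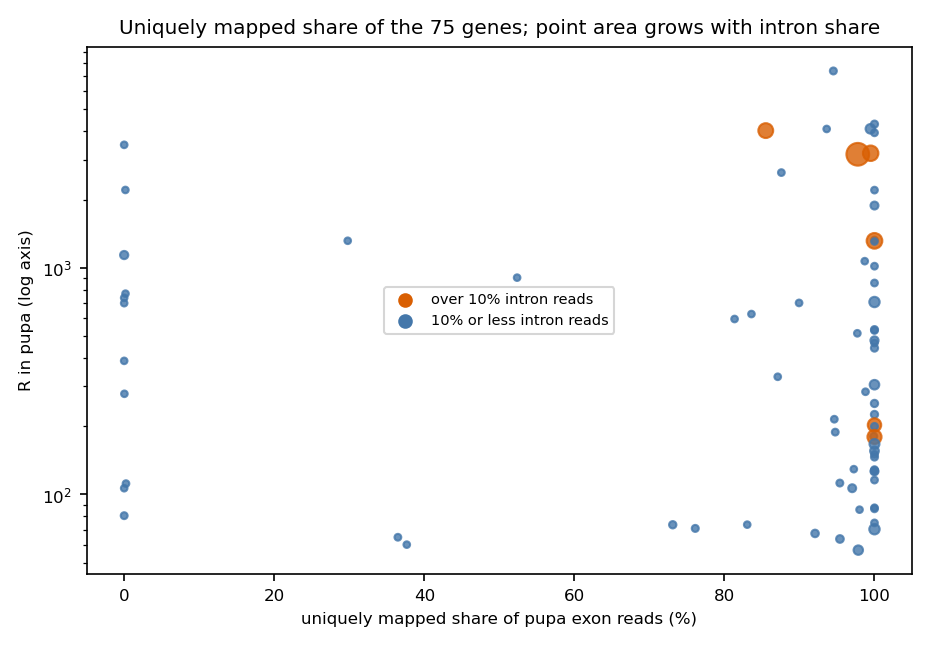
Pupa value (rescaled TPM, log axis) against the uniquely mapped share of exon reads in the pupa for the 75 genes. Point area grows with the share of intron reads, and orange points exceed 10%. Most genes stand at the right, and 11 stand under 1% at the left, where nearly all reads also match elsewhere.

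Near the limits of the set the choice turned on small differences. The members with the lowest pupa values were LOC118263714 at 56.8, LOC118277144 at 60.1 and LOC118273561 at 63.6, and the nearest genes outside were LOC118266051, LOC118263169 and LOC118274649, all without a name, at 47.0, 46.8 and 46.2. By the lower of the 2 ratios, the nearest inside were LOC118269307 at 20.04, LOC118280577 at 20.2 and LOC118272637 at 20.2. The nearest outside were LOC118263086 at 19.7, LOC118279662 at 19.5 and LOC118279658 at 19.4. LOC118263086 had 3.17 in L6, no prepupal read and 81.1 in the pupa, close to the member LOC118263085 with 2.38, 0.285 and 80.6. None of the pupa reads of LOC118263085 or LOC118280577 mapped uniquely, and in LOC118272637 only 0.177% did. The values of these genes thus depend on how shared reads were assigned. LOC118279662 was as abundant as the leading members, with 70.7, 203 and 3972. In 57 of the 75 members the lower 95% bound of both folds was 20 or more.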

How the data were processed

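The authors isolated total RNA and had 1 library per stage sequenced on the BGISEQ-500. They mapped it to the fall armyworm genome in CLC Genomics Workbench 9.5.9, and deposited 1 table of 20644 genes per library. The handling of multiply mapped reads is not given in the sources used here. The deposited counts are raw exon, intron and uniquely mapped reads. The deposited TPM is exon reads per exon length, scaled over all listed genes, rRNA included, and the deposited RPKM is proportional to it within a library.

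For this report 138 rRNA and mitochondrial rows were removed and TPM rescaled. Logarithms were used only on axes. No test between stages was possible. Intervals on folds come from exact (Clopper-Pearson) binomial intervals on the reads of 2 libraries, with the scaling taken as known. The code of the selection was run on simulated reads with counting error only, which says nothing of variation between animals. Python 3.11.15, scipy 1.17.1 and, for TMM factors, edgeR 4.0.16 were used.

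The genes, name classes and lists were chosen with earlier results of these data known. Genes named are the highest members, the highest of each name class and run, those at the limits, those with extreme L6 or prepupa shares, and those with low unique or high intron shares. A few more are named for comparison. Names come from the study's tables, of which the largest, genes it found higher in glands than in other tissues, is held in part, so named genes are not a random sample. RefSeq's gene table (AGI-APGP_CSIRO_Sfru_2.0), used only to match names, held 61 of the 75 genes. Promoter and protein sequences were not analysed here. Coordinates are those of the files, whose genome build is not given in the sources used here.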

Additional observations from a re-analysis of the deposited data

How the results depend on the processing

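The count of 75 genes stayed within 1.5 times under all other scalings, units and minimum levels. It moved to 43 with a pseudocount of 5, 156 with a ratio of 10 and 38 with a ratio of 40. Without the L6 library in the comparison there were 160 genes and without the prepupa 124. TPM as deposited gave 82, of which 59 are shared, and TMM scaling 103, with all 75 among them. The 9 cuticular members were 8 to 10 under every alternative run. The count of 48 genes higher in L6 than in the prepupa was 29 on TPM as deposited, 58 with CPM, 45 with TMM and 40 with unique reads. It was also 40 among only those members with 10 or more reads in L6 and the prepupa together. Among genes selected on TPM as deposited, which are a different set, it was 69. The median L6 share of the pupa level, 1.46%, was 0.490% with TPM as deposited, 1.297% with CPM, 1.06% with TMM, 1.305% with unique reads, 1.60% over genes with 10 or more reads in L6 and the prepupa together, and 2.25% over genes selected on TPM as deposited. The share of the pupa library, 7.07%, was 5.77%, 6.79%, 6.77% and 6.85% with TPM as deposited, CPM, unique reads and the genes with 10 or more such reads, and 12.5% over genes selected on TPM as deposited. The restrictions to uniquely mapped genes (61) and to lower bounds of 20 or more (57) were chosen after seeing the data. The cause of these shifts was not tested. No paired analysis was possible because each stage has 1 library. With 2610753 usable reads in L6, genes under 10 L6 reads have wide intervals.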

Other observations

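The same limits applied to the 951 long noncoding RNA genes of the files selected 16 (1.68%), which took 2.56% of the rescaled TPM of the pupa. The highest, LOC118276447, had 279 at L6, 260 at the prepupa stage and 12129 in pupal glands, above every protein-coding gene of the set. LOC118275196 had 87.2, 124 and 5459, and LOC118272253 had 40.8, 12.4 and 3255. Their median level was 1.80% of the pupa level in L6 and 1.75% in the prepupa, and 9 of the 16 were higher in L6 than in the prepupa.

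Of the 16, 7 lay within 100 kb of a protein-coding gene of the set. How many of all long noncoding RNA genes lay that near was not counted, so this number is a description only. LOC118276447, LOC118275196, LOC118274489 and LOC118277487 lie in a row before small proline-rich protein 2H-like (LOC118277471) on NC_049711.1, the nearest 0.899 kb away. LOC118274489 had 36.0, 37.5 and 1107, and LOC118277487 had 10.9, 14.8 and 914, and like LOC118277471 they stood at similar levels in L6 and the prepupa. LOC118266072, LOC118266519 and LOC118266436 lie between LOC118266491 and LOC118266310 on NC_049717.1, with 102, 112 and 212 in the pupa. Strand use in the read counting is not given in the sources used here.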
